A study of Mus musculus with 188 samples.

Results

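The AXB/BXA and BXD mice are recombinant inbred strains, each strain an inbred mosaic of 2 parental genomes. The parents of AXB and BXA strains were A/J and C57BL/6J and those of BXD strains were DBA/2J and C57BL/6J, so the families share 1 parent and differ in the other. A gene at which A/J and DBA/2J carry different regulatory alleles is therefore set, in each family, by a mixture of strains that inherited the C57BL/6J allele and strains that inherited the allele of the family's own second parent. The question was which aortic transcripts differ between the family means, in which direction, and what the encoded proteins do.

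Strains were assigned by the start of the strain label. Of the 94 strains in the series, 28 were AXB or BXA strains (59 arrays) and 27 were BXD strains (51 arrays), BXD32/TyJ having been left out, so 55 strains and 110 of 188 arrays entered the contrast. All mice were males aged 16 weeks on a chow diet with no treatment, and all were labelled wild-type, although 2 of the BXD strains carry a mutant allele in their name, BXD24/TyJ-Cep290<rd16>/J and BXD29-Tlr4<lps-2J>/J. AXB/BXA had 1 strain with 1 array, 24 with 2, 2 with 3 and 1 with 4, and BXD had 5 strains with 1 array, 21 with 2 and 1 with 4. Parental values came from 2 A/J, 2 DBA/2J and 3 C57BL/6J arrays, none of which is in a family mean. Expression is given as RMA log2 values, on which a difference of 1 is a doubling. They ran between 2.17 and 13.5, and array medians lay between 4.55 and 4.88. All values below are per strain, and the strain is the replicate.

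The samples carried vascular and adipose RNA in both families. The smooth muscle actin Acta2 averaged 12.5 ± 0.22 in AXB/BXA and 12.4 ± 0.27 in BXD strains (SD, n = 28 and 27), and Ucp1, the uncoupling protein of brown fat, averaged 12.7 ± 0.17 in each. T cell and squamous epithelium genes were high on some arrays. On scores that average a list's values centred on their medians, 32 of 59 AXB/BXA arrays and 16 of 51 BXD arrays lay above 1 on at least 1 of these lists, and 19 against 6 did so on the T cell list.

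The arrays of 1 AXB/BXA strain went against each other. Over the 200 probe sets with the highest ratio of between-strain to within-strain variance, the best correlation of a family array with another array of its own strain had a median of 0.901 and, outside BXA16/PgnJ, a minimum of 0.567. Among the 3 BXA16/PgnJ arrays, the 2 numbered 995 and 996 correlated at 0.875 with each other and at -0.352 and -0.266 with the one numbered 1114. H2-Ea, for example, read 10.9 and 9.47 on arrays 995 and 996 and 2.96 on array 1114, beside parental means of 4.14 in A/J, 9.47 in DBA/2J and 3.09 in C57BL/6J. Likewise Cxcl14 read 10.3 and 11.03 on the first pair and 6.64 on the other, beside 6.55 in A/J, 11.1 in DBA/2J and 6.27 in C57BL/6J. On these genes the pair carried the level of DBA/2J, which is not a parent of the BXA cross. Of 104 family arrays with a strain mate, 6 were nearest to an array of another strain, 1 of them the BXA16/PgnJ array 1114. The strain was kept under its label, and values without it are given beside the counts below.

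Many probe sets differed between the family means. By limma's moderated test on strain means, with Benjamini-Hochberg adjustment over 22327 probe sets and a threshold of 0.05, 476 probe sets (2.13%) were called, of which 194 (0.869%) were higher in AXB/BXA strains and 282 (1.26%) were lower. Without BXA16/PgnJ 474 were called, and 430 of them were among the 476. Without arrays high in T cell or squamous genes, which left 19 AXB/BXA and 23 BXD strains, 128 were called, 113 of them among the 476. Taking the strongest probe set of each of 11725 genes, 228 genes (1.94%) were called, 91 (0.776%) higher and 137 (1.17%) lower, and 200 of the 228 were called without BXA16/PgnJ. Most differences were small. The median absolute difference of the called genes was 0.364 (1.29-fold), 155 of them lay below 0.5, and 21 reached 1, of which 8 were higher and 13 lower in AXB/BXA strains. In each of the 228 genes the ranges of the families overlapped, so no gene separated every AXB/BXA strain from every BXD strain. The spread between strains was wider in AXB/BXA for 93 of the called genes (40.8%), against 63.0% of all genes.

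The array numbers in the sample titles fell into 2 blocks, 952 to 1038 and 1069 to 1168 in these families; the labels do not say what the numbers stand for. The earlier block held 25 AXB/BXA and 17 BXD arrays and the later block 34 of each. Within each block all 476 called probe sets had the direction of the pooled contrast, and the median ratio of the within-block to the pooled difference was 0.970 in the earlier block and 1.00 in the later one. The 476 were selected on strain means that hold the arrays of both blocks. That selection favours such agreement, which is therefore no independent check. No probe set was called for a difference between blocks in the family contrast (limma, 636 at an unadjusted p below 0.05, 10 of them among the 476). Within the blocks alone, 178 probe sets were called in the later block (18 AXB/BXA and 17 BXD strains) and 0 in the earlier one (13 and 10 strains, 1073 at an unadjusted p below 0.05).

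**Figure D1:**
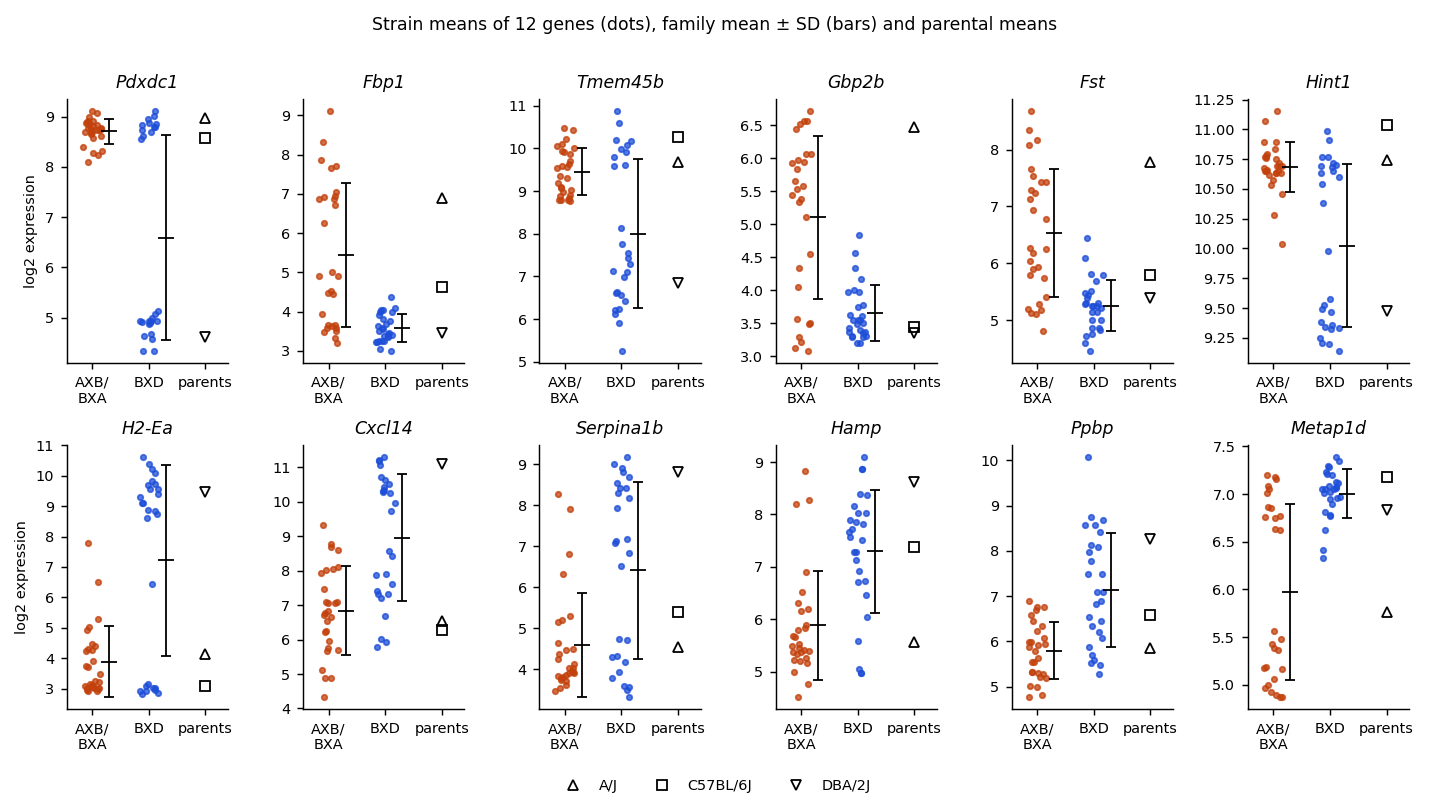
Strain means (dots) of 12 genes with large family differences, with AXB/BXA strains on the left, BXD strains in the middle and parental means on the right; black bars give the family mean ± SD over 28 and 27 strains, and the y axis is log2 expression. One family often lies in 2 separate groups of strains at the levels of its 2 parents, as Pdxdc1 and H2-Ea do among BXD strains and Metap1d does among AXB/BXA strains.

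Of the genes with the largest differences higher in AXB/BXA strains, some had BXD strains near both parental levels. Pdxdc1, which encodes a protein with a pyridoxal-dependent decarboxylase domain, had strain means with a lowest, median and highest value of 8.10, 8.75 and 9.12 in AXB/BXA strains and 4.33, 5.07 and 9.11 in BXD strains. Every AXB/BXA strain lay near the common level of A/J (8.96) and C57BL/6J (8.58), whereas 15 BXD strains lay nearer DBA/2J (4.62) and 12 nearer C57BL/6J. The family difference was 2.12 ± 0.38 (SE, limma adjusted p = 0.000394), but another Pdxdc1 probe set was called at -2.34 ± 0.39 (adjusted p = 0.000168), so the direction for the gene is uncertain. Tmem45b, encoding a transmembrane protein, ran from 8.77 through a median of 9.44 up to 10.5 in AXB/BXA strains and from 5.24 through 7.43 up to 10.9 in BXD strains, of which 17 were nearer DBA/2J and 10 nearer C57BL/6J. Its difference was 1.45 ± 0.34 (adjusted p = 0.00869).

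Further genes had some BXD strains nearer DBA/2J and others nearer C57BL/6J. Hint1, a nucleotide-binding protein of the histidine triad family, had a lowest value of 10.03, a median of 10.69 and a highest of 11.16 in AXB/BXA strains, beside 9.14, 9.98 and 10.99 in BXD strains. All 28 AXB/BXA strains stood above the BXD median, 14 BXD strains lay nearer DBA/2J, and the difference was 0.66 ± 0.13 (adjusted p = 0.00162). The second Hint1 probe set, at a mean level of 10.1 against 10.36, differed by 0.03 ± 0.05 (adjusted p = 0.856), with A/J minus DBA/2J at -0.14. Ppp1r1a, an inhibitor of protein phosphatase 1, differed by 0.81 ± 0.18, with 17 BXD strains nearer DBA/2J and 10 nearer C57BL/6J. Mcm6, a subunit of the replicative helicase, differed by 0.92 ± 0.21, and 12 BXD strains were nearer DBA/2J. Its AXB/BXA median of 6.43 lay above both A/J (5.38) and C57BL/6J (5.96). Myo5a encodes the motor protein myosin Va, and its dilute coat colour allele is carried by DBA/2J. It differed by 0.92 ± 0.21, with 14 BXD strains nearer DBA/2J (3.83) and 13 nearer C57BL/6J (5.23), while 19 AXB/BXA strains lay nearer A/J (6.36). The C57BL/6J arrays of Myo5a disagreed, at 4.86, 4.54 and 6.31. Without arrays high in T cell or squamous genes these 4 calls were lost (limma). The adjusted p was 0.118 for Hint1, 0.0606 for Ppp1r1a, 0.194 for Mcm6 and 0.225 for Myo5a.

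In other genes the high level was confined to part of the AXB/BXA strains. Fbp1 encodes the gluconeogenic enzyme fructose-1,6-bisphosphatase, and its AXB/BXA strain means had a lowest, median and highest value of 3.20, 4.92 and 9.12, beside 2.99, 3.51 and 4.37 in BXD strains. In 18 AXB/BXA strains Fbp1 stood above every BXD strain, and the difference was 1.86 ± 0.35 (adjusted p = 0.000766). Fst, the secreted activin antagonist follistatin, had 4.80, 6.26 and 8.68 in AXB/BXA strains and 4.45, 5.26 and 6.45 in BXD strains. Its AXB/BXA strains divided into 12 nearer A/J (7.78) and 16 nearer C57BL/6J (5.79), with a difference of 1.28 ± 0.23 (adjusted p = 0.000394). Abhd1, of the alpha/beta hydrolase fold family, was bounded by 3.89 and 8.28 in AXB/BXA strains and by 3.96 and 4.50 in BXD strains, with 12 AXB/BXA strains nearer A/J. Baiap2l1, which links membranes to the actin cytoskeleton, had 16 AXB/BXA strains above every BXD strain and differed by 1.50 ± 0.30 (adjusted p = 0.0013). Its parental means were 4.93 in A/J, 4.29 in C57BL/6J and 4.12 in DBA/2J. Its highest strain mean, 9.66, was that of BXA1/PgnJ, which had 1 array. Without arrays high in T cell or squamous genes Fbp1 and Fst kept their calls (limma adjusted p = 0.000741 and 0.042). Abhd1 and Baiap2l1 lost theirs (adjusted p = 0.156 and 0.0534).

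Erdr1, a gene of the pseudoautosomal region, was higher in AXB/BXA strains by 1.66 ± 0.42 (adjusted p = 0.0197), with a lowest, median and highest of 6.16, 9.96 and 11.7 there and 3.91, 8.82 and 10.9 in BXD strains. The A/J arrays gave 8.54 and 8.39, the DBA/2J arrays 9.02 and 8.58, so the parents did not show the direction of the families.

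The integrin subunit gene Itga9 differed by 0.80 ± 0.18, the caveolar coat gene Cavin1 by 0.77 ± 0.19 and Fli1, a transcription factor of endothelial and megakaryocyte lineages, by 0.70 ± 0.15. The parental differences, A/J minus DBA/2J, had the same sign, at 0.72 for Itga9, 0.98 for Cavin1 and 1.00 for Fli1. For each of these 3 genes the other probe sets on the array showed differences between -0.0065 and 0.16 and none was called, and the 2 A/J arrays disagreed on Itga9 (4.36 and 7.31). Without arrays high in T cell or squamous genes the 3 calls were lost (limma). The adjusted p was 0.221 for Itga9, 0.102 for Cavin1 and 0.0666 for Fli1.

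**Figure D2:**
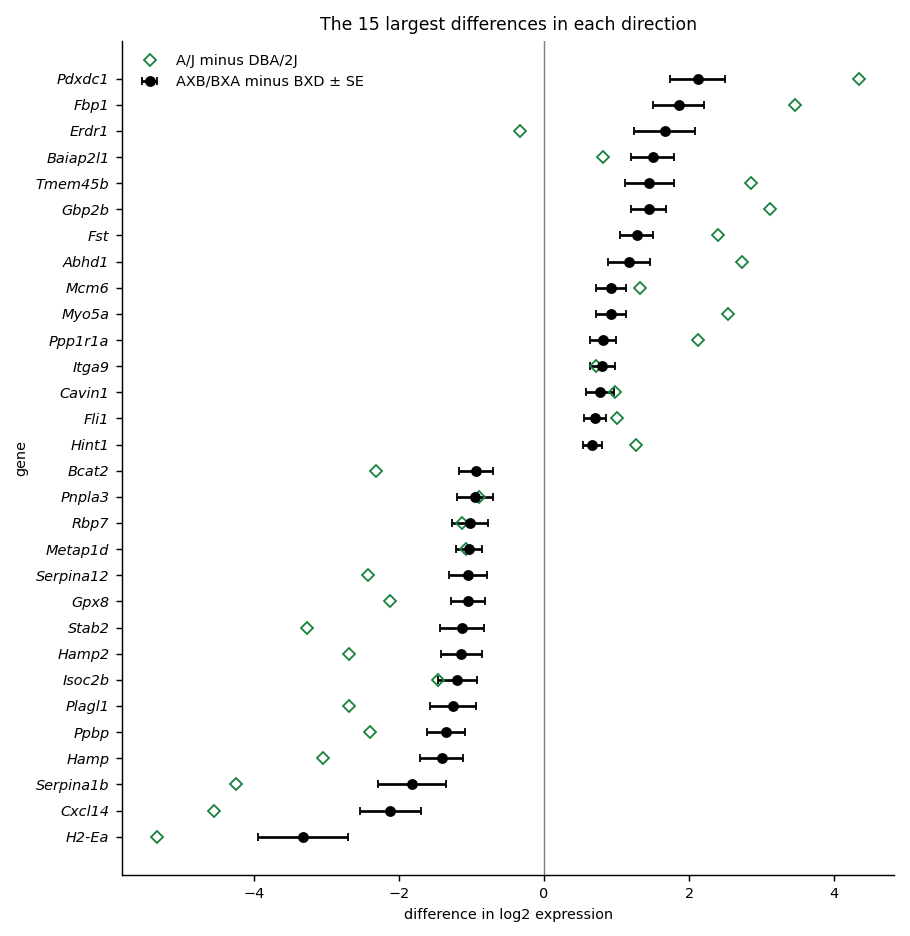
AXB/BXA minus BXD in log2 expression ± SE (black) for the 15 genes with the largest called difference in each direction, with A/J minus DBA/2J (green diamonds) for the same probe sets. Erdr1 is the one gene of the 30 whose diamond lies on the other side of 0.

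Among genes lower in AXB/BXA strains the largest difference was that of H2-Ea, the alpha chain of the class II molecule I-E, which C57BL/6J is known to lack. H2-Ea had a lowest, median and highest of 2.92, 3.36 and 7.79 in AXB/BXA strains and 2.82, 8.86 and 10.6 in BXD strains. In 17 of the 27 BXD strains it stood above every AXB/BXA strain, 9 BXD strains were nearer C57BL/6J, and the highest AXB/BXA strain was BXA16/PgnJ. The difference was -3.32 ± 0.62 (adjusted p = 0.000662), -4.75 within the later block and -0.98 within the earlier one (-1.45 there without BXA16/PgnJ). The A/J arrays read 4.67 and 3.60. Its probe set can bind related transcripts, and a second H2-Ea probe set was called at -0.71. A strain variant under its probes and a change in transcript level cannot be told apart here. Low values on this probe set alone do not show that a strain lacks I-E.

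Cxcl14, a chemokine, had 4.32, 6.80 and 9.33 in AXB/BXA strains and 5.78, 9.73 and 11.3 in BXD strains. In 14 BXD strains it lay above the highest AXB/BXA strain and near the DBA/2J level of 11.1, and the difference was -2.12 ± 0.42 (adjusted p = 0.00125). Without arrays high in T cell or squamous genes it was -1.26 (adjusted p = 0.302, 19 and 23 strains). Serpina1b, an alpha-1-antitrypsin gene with close copies that its probe sets may also detect, had 3.46, 4.03 and 8.28 in AXB/BXA strains and 3.32, 7.07 and 9.18 in BXD strains, a difference of -1.82 ± 0.47 (adjusted p = 0.0208). The C57BL/6J arrays of Serpina1b disagreed, at 3.72, 8.68 and 3.77. Serpina12, the adipokine vaspin, did not exceed 4.83 in AXB/BXA strains and reached 7.52 in BXD strains, 10 of which stood above every AXB/BXA strain (difference -1.04 ± 0.26).

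Ppbp, the precursor of the platelet chemokine CXCL7, had a lowest, median and highest of 4.76, 5.83 and 6.90 in AXB/BXA strains and 5.27, 7.08 and 10.1 in BXD strains. All AXB/BXA strains lay below the BXD median and 15 BXD strains lay above every AXB/BXA strain. The difference was -1.35 ± 0.26 (adjusted p = 0.00107), -0.80 within the earlier and -1.70 within the later block. In whole tissue, fewer cells of a type and less RNA per cell cannot be told apart.

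Isoc2b, of the isochorismatase family, differed by -1.20 ± 0.27, and 14 AXB/BXA strains lay below every BXD strain. Metap1d, the mitochondrial methionine aminopeptidase, had 4.87, 5.52 and 7.21 in AXB/BXA strains and 6.33, 7.06 and 7.39 in BXD strains. Its AXB/BXA strains divided into 15 nearer A/J (5.76) and 13 nearer C57BL/6J (7.18), and it kept its call without arrays high in T cell or squamous genes (-0.98, adjusted p = 0.0112). Gpx8, a peroxidase of the endoplasmic reticulum, was below every BXD strain in 16 AXB/BXA strains and differed by -1.05 ± 0.23.

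Bcat2, which transaminates branched-chain amino acids in mitochondria, differed by -0.94 ± 0.23, and 24 AXB/BXA strains lay nearer A/J than C57BL/6J. Pnpla3, a protein of lipid droplets, differed by -0.95 ± 0.25, and Rbp7, a retinol-binding protein of fat and endothelium, by -1.02 ± 0.25. Plagl1, an imprinted zinc finger gene, differed by -1.26 ± 0.32. Stab2, a hyaluronan scavenger receptor of sinusoidal endothelium, differed by -1.13 ± 0.30 (adjusted p = 0.0309), with the highest AXB/BXA value in BXA16/PgnJ. Leaving out either of 2 strains ended the call of Stab2 (adjusted p up to 0.0511, without BXD24/TyJ-Cep290<rd16>/J).

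The direction between the families was mostly the direction between their second parents. A/J and DBA/2J arrays share no sample with the family means, and by limma 101 probe sets (0.452%) were called between them. That fit took its spread from all strains, and a fit on the 4 A/J and DBA/2J arrays alone called 8. The parental difference had the sign of the family difference in 389 of the 476 called probe sets (81.7%), against 49.1% of all probe sets. Among probe sets with a family difference of at least 1 it did so in 44 of 45, and among those below 0.5 in 246 of 328 (75%). The 72 probe sets called in both contrasts all had the same sign, and they were 15.1% of the family calls and 71.3% of the parental calls. Across these 72 probe sets the family difference was a median of 0.454 times the parental one. Probe sets are not independent, and these shares are given as descriptions.

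**Figure D3:**
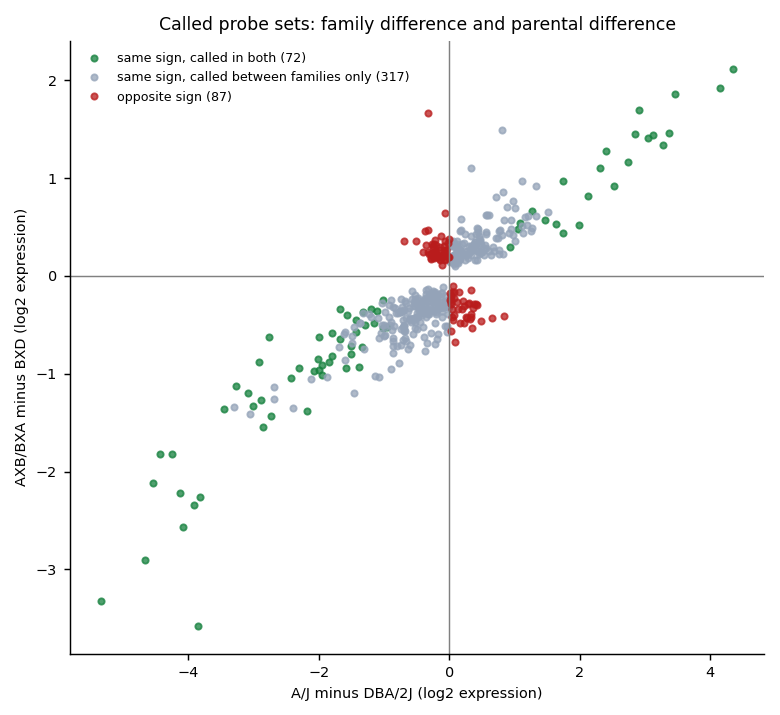
A/J minus DBA/2J (x axis) against AXB/BXA minus BXD (y axis), both in log2 expression, for the 476 called probe sets. Green points (72) were called in both contrasts with the same sign, grey points (317) had the same sign and were called between families only, and red points (87) had opposite signs; 82 of these have a family difference below 0.5, and Erdr1 is the one at 1 or more.

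Of the 228 called genes, 46 had parental means in the opposite order. Ptger4, a prostaglandin E2 receptor, was lower in AXB/BXA strains by 0.41 ± 0.12 (adjusted p = 0.0498), with A/J at 6.67 and 6.08 and DBA/2J at 5.60 and 5.48. Its call was lost in 39 of 55 fits that each left out 1 strain. Sox6, a transcription factor, differed by -0.43 ± 0.11 between the families and by 0.65 between A/J and DBA/2J, whose 2 arrays read 5.54 and 7.04. Both genes were singled out after their values were seen.

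Neighbouring genes were called together in 5 places among 11715 placed genes, with 1.94% of all genes called. The longest run of called neighbours was 2 genes. Whether 5 pairs are more than scattered calls would give was not tested. One of these was the pair Gbp2b and Gbp2, adjacent members of the guanylate-binding protein family, which are GTPases that interferons induce and that act against intracellular pathogens. They moved in opposite directions. Gbp2b had a lowest, median and highest of 3.08, 5.49 and 6.72 in AXB/BXA strains and 3.20, 3.55 and 4.85 in BXD strains, and 18 AXB/BXA strains stood above every BXD strain. Its difference was 1.44 ± 0.24 (adjusted p = 0.000176). Gbp2 had 5.08, 5.82 and 6.27 in AXB/BXA strains and 5.62, 6.56 and 7.33 in BXD strains, a difference of -0.79 ± 0.10 (adjusted p = 3.4e-06), the smallest adjusted p among the genes named here. Gbp2 was called again at -0.74 by its second probe set, and at -0.90 (adjusted p = 3.51e-05) without arrays high in T cell or squamous genes.

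The promoters of these neighbours are shown because the genes are adjacent, are both induced by interferons and moved apart. Each line is the RefSeq sequence of assembly GRCm38.p6, 300 bases on the plus strand, and capitals mark the core of the interferon-stimulated response element, GAAA and GAAA with 2 bases of any kind between them, found here on the opposite strand. Both windows hold 1 match, while 3.44% of 32851 promoters of that length hold at least 1 on either strand. Neither window holds TTCNNNGAA, the STAT-binding motif GAS, which 8.3% of promoters hold. Aligned end to end, the windows were identical at 163 of 342 positions (47.7%).
Gbp2b, chr3:142594597-142594896: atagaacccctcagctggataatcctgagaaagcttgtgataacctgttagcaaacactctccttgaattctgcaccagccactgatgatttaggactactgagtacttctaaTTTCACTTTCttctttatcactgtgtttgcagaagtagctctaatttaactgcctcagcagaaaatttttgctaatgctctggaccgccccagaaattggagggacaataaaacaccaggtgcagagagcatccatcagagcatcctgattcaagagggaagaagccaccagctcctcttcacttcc
Gbp2, chr3:142620413-142620712: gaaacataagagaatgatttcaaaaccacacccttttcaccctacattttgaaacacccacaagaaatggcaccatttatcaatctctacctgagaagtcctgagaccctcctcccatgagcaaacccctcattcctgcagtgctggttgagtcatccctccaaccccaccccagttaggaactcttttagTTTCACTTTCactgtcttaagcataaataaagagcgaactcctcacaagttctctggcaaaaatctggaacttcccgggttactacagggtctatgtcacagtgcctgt

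The rest of the guanylate-binding and immunity-related GTPase list held no call. Of 12 measured genes of that list, which did not hold Gbp2b, only Gbp2 was called (8.33%). Of the 12, 3 had positive differences, and the list's median difference was -0.14. Without arrays high in T cell or squamous genes 1 was positive and the median was -0.26. With the T cell, squamous and skeletal muscle scores as covariates 1 was positive and the median was -0.17. The interferon response list had 0 of 11 genes called (limma, 1 at an unadjusted p below 0.05) and a median of 0.01, beside 1.94% called and a median of 0.00 over all genes. Gbp3 and Gbp7 differed by -0.11 ± 0.08 and -0.20 ± 0.13 (adjusted p = 0.612 and 0.537).

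Another neighbouring pair was Hamp and Hamp2, the 2 mouse hepcidin genes. Hepcidin is the peptide hormone, made mainly by liver, that lowers iron export by binding the exporter ferroportin, and it is induced by bone morphogenetic proteins and by interleukin 6. Hamp had a lowest, median and highest of 4.51, 5.51 and 8.82 in AXB/BXA strains and 4.97, 7.56 and 9.10 in BXD strains. Of the AXB/BXA strains 25 lay below the BXD median, and 24 of the 27 BXD strains lay above the AXB/BXA median. The difference was -1.41 ± 0.29 (adjusted p = 0.00233), -0.83 within the earlier and -1.82 within the later block. Hamp2 had 4.40, 4.81 and 6.64 in AXB/BXA strains and 4.09, 5.43 and 9.21 in BXD strains, a difference of -1.14 ± 0.28 (adjusted p = 0.0173), -0.45 within the earlier and -1.56 within the later block. A second Hamp probe set was called at -1.34, whereas a second Hamp2 probe set differed by 0.11 (adjusted p = 0.477). The strongest probe sets of both genes are of the kind that may bind related transcripts, so their values may not be separate.

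The 2 hepcidin promoters are shown because the genes are close copies that differ in 1 of 2 known regulatory motifs. The lines give the RefSeq sequence of GRCm38.p6 on the minus strand, with capitals at GGCGCC, the bone morphogenetic protein response element, and at TTCNNNGAA, the STAT-binding motif. Hamp holds 1 match to each and Hamp2 holds 1 match to TTCNNNGAA and 0 to GGCGCC, which 11.9% of promoters hold. The windows were identical at 276 of 303 aligned positions (91.1%).
Hamp, chr7:30943980-30944279: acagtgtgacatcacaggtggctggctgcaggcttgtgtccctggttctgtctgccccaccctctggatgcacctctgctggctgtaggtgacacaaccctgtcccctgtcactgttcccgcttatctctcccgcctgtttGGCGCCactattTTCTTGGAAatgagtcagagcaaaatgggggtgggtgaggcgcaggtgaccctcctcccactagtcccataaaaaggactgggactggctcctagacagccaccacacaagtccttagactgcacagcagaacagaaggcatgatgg
Hamp2, chr7:30924132-30924431: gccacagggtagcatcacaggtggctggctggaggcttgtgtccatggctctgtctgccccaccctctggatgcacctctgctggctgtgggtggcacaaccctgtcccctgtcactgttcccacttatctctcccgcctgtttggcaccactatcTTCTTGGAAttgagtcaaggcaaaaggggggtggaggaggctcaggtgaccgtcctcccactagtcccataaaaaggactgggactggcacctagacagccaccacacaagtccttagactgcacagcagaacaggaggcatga

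On a list of iron handling genes drawn up after the values were seen, 6 of 20 measured genes were called, all lower in AXB/BXA strains, beside 1.17% of all genes lower. The list had 1 gene called without arrays high in T cell or squamous genes (Slc40a1, adjusted p = 0.0483), 0 in the earlier block and 3 in the later one, and 0 with BXA strains alone, and 7 without BXA16/PgnJ. Besides the hepcidins these were Slc40a1, which encodes ferroportin (-0.46 ± 0.13), the iron oxidases Cp, ceruloplasmin (-0.53 ± 0.14), and Heph, hephaestin (-0.17 ± 0.04), and the haemoglobin scavenger Hp, haptoglobin (-0.50 ± 0.12). The other 14 were not called, among them the ferritin genes Fth1 (0.05 ± 0.02) and Ftl1 (0.12 ± 0.08), and the list's median was -0.11. The parents did not share the direction for Slc40a1, whose A/J arrays read 7.58 and 7.32 and DBA/2J arrays 6.28 and 7.67. Its call was lost in 9 of 55 fits that each left out 1 strain.

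On a list of acute-phase and plasma proteins drawn up after the values were seen, 5 of 20 genes were called, all lower in AXB/BXA strains, beside 1.17% of all genes: Serpina1b, Hp, Cp, Lrg1 (-0.42 ± 0.12) and the complement gene C4b (-0.57 ± 0.15). Without arrays high in T cell or squamous genes none of the 20 was called, and the list's median was 0.04, against -0.14 with them. Liver-made proteins on the same list had positive differences that were not called, albumin (Alb) at 0.80 ± 0.32 (adjusted p = 0.229), Apoa1 at 0.52 ± 0.24 and Ttr at 0.39 ± 0.20. The call of Lrg1 was lost in 36 of 55 fits that each left out 1 strain, and that of C4b in 1 (adjusted p = 0.0534 without BXD42/TyJ).

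On a list of platelet genes drawn up after the values were seen, 4 of 13 measured genes were called lower in AXB/BXA strains, 12 had negative differences, and the median was -0.34, beside 1.17% and a median of 0.00 over all genes. The called genes were Ppbp, F13a1, the transglutaminase that cross-links fibrin (-0.61 ± 0.11, adjusted p = 0.000651), the ADP receptor P2ry1 (-0.29 ± 0.06) and the adhesion molecule Selp, P-selectin (-0.34 ± 0.09). F13a1 had a lowest, median and highest of 5.85, 7.06 and 7.96 in AXB/BXA strains and 6.57, 7.63 and 8.26 in BXD strains. It is also made by macrophages, whose marker list had 0 of 16 genes called (limma, 2 at an unadjusted p below 0.05) and a median of -0.17.

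Platelet glycoproteins and receptors that were not called had differences between -0.66 and -0.14: Gp1bb at -0.66 ± 0.24 (adjusted p = 0.161), Clec1b at -0.65 ± 0.20 (adjusted p = 0.0756), Pf4 at -0.39 ± 0.14 (adjusted p = 0.154), Itga2b at -0.31 ± 0.13 and P2ry12 at -0.14 ± 0.06. Itgb3, which endothelium and smooth muscle also express, differed by 0.08 ± 0.03. The list's median was -0.20 within the earlier and -0.41 within the later block, -0.24 without arrays high in T cell or squamous genes and -0.35 without BXA16/PgnJ. None of the 13 was called without arrays high in T cell or squamous genes (F13a1 at an adjusted p of 0.0552, Ppbp 0.0932, P2ry1 0.221, Selp 0.384) or in the earlier block, and 2 were in the later block. The call of Selp was lost without either of 2 strains (adjusted p up to 0.0527, without BXD24/TyJ-Cep290<rd16>/J).

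**Figure D4:**
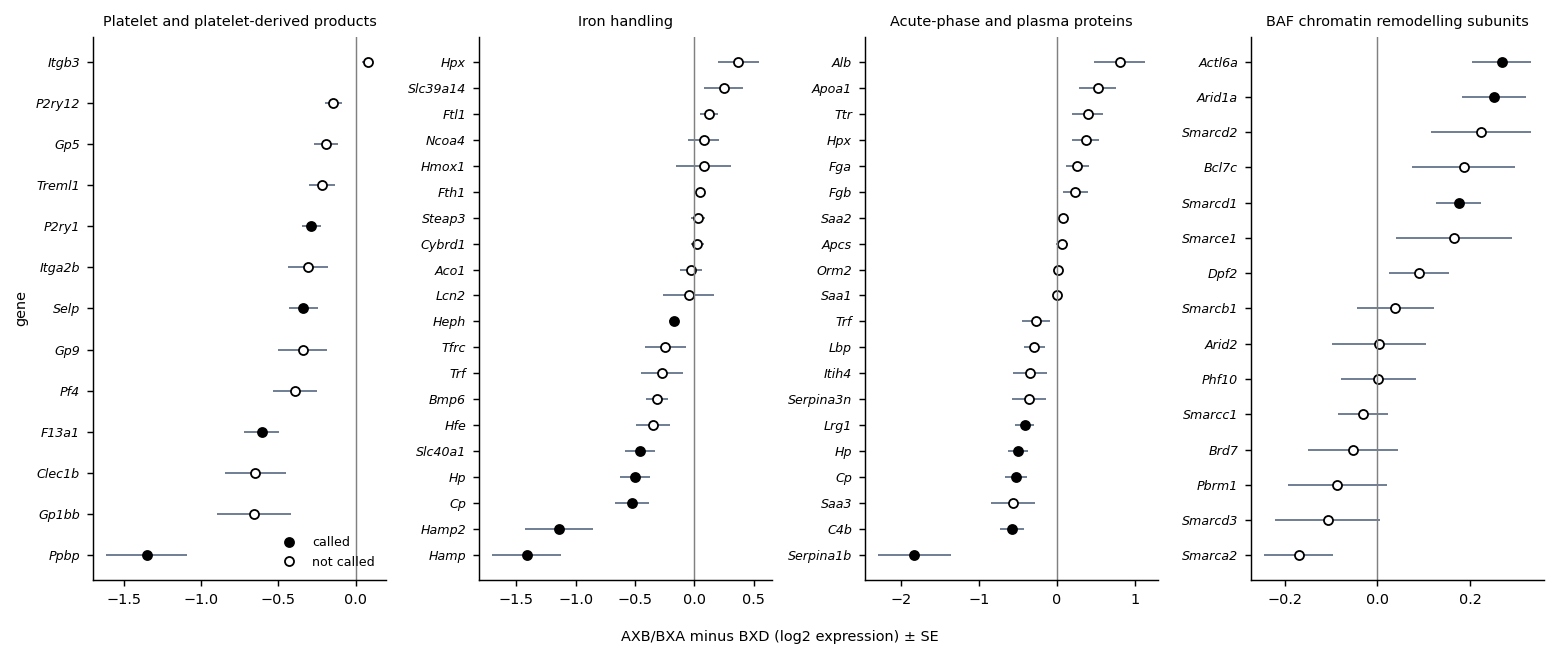
AXB/BXA minus BXD in log2 expression ± SE for the members of 4 lists drawn up after the values were seen, with called genes filled and the other genes open. Of the 13 platelet genes 12 lie below 0, the called iron and plasma protein genes all lie below 0, and the 3 called subunits of the BAF chromatin remodelling complex lie above 0.

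Of 15 subunits of the BAF chromatin remodelling complex, on a list drawn up after the values were seen, 3 were called higher in AXB/BXA strains, beside 0.776% of all genes: Actl6a (0.27 ± 0.06), Arid1a (0.25 ± 0.07) and Smarcd1 (0.17 ± 0.05), with a list median of 0.04. The calls of Arid1a and Smarcd1 were each lost in 10 of 55 fits that each left out 1 strain. No subunit was called without arrays high in T cell or squamous genes or in either block alone. The 3 differences were between 0.13 and 0.21, and none was called, with the T cell, squamous and skeletal muscle scores as covariates. Mrpl15, a mitochondrial ribosomal protein, had 7.001, 7.63 and 8.01 in AXB/BXA strains and 6.12, 7.11 and 7.43 in BXD strains, and it differed by 0.49 ± 0.08 (adjusted p = 6.96e-05). Its difference was 0.59 (adjusted p = 0.000406) without arrays high in T cell or squamous genes.

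Of 70 mitochondrial ribosomal protein genes 3 were called (4.29%, beside 1.94% of all genes), with a median of 0.02. Of these 2 were called higher, Mrpl15 and Mrpl34 (0.30 ± 0.08, the call lost in 21 of 55 fits that each left out 1 strain), and 1 lower, Mrpl44 (-0.19 ± 0.05). Mgme1, a nuclease that maintains mitochondrial DNA, differed by 0.42 ± 0.08 (adjusted p = 0.000766), and Tfb1m, a methyltransferase of mitochondrial ribosomal RNA, by 0.29 ± 0.07 (adjusted p = 0.0176). Both were singled out after their values were seen. The respiratory chain list had 0 of 82 genes called (limma, 4 at an unadjusted p below 0.05). Of 41 proteasome genes 2 were called higher, Psmb6 (0.24 ± 0.06) and Psmd5 (0.18 ± 0.04), and none lower (4.88%, beside 1.94% of all genes). None was called without arrays high in T cell or squamous genes or in either block alone.

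Of 51 cytosolic ribosomal protein genes 2 were called (3.92%, beside 1.94% of all genes), both lower in AXB/BXA strains, Rpl15 at -0.67 ± 0.13 (adjusted p = 0.000752) and Rpl13 at -0.50 ± 0.12 (adjusted p = 0.0128). Rpl13 was bounded by 7.78 and 9.91 in AXB/BXA strains and by 9.26 and 9.95 in BXD strains, with A/J at 8.45 and 8.72, DBA/2J at 10.2 and 9.60 and C57BL/6J at 9.77 on average. The other 49 were not called, and the list's median was -0.01. Of 32 serpins the 2 called (6.25%) were Serpina1b and Serpina12, and the median was -0.01.

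Zinc finger and solute carrier genes differed in their share of calls, and both lists had medians near 0. Among 163 Zfp genes 7 were called (4.29%, beside 1.94% of all genes), and the median was -0.00. Of these 2 were higher, Zfp277 (0.57 ± 0.12) and Zfp142. The other 5 were lower, including Zfp97 (-0.50 ± 0.11) and Zfp518b (-0.42 ± 0.07, adjusted p = 0.000141). None of the 163 was called without arrays high in T cell or squamous genes or in the earlier block, and 4 were in the later block. Among 252 Slc genes 4 were called (1.59%, below the 1.94% of all genes), all lower, with a median of 0.01. They were Slc12a2, the sodium, potassium and chloride cotransporter of smooth muscle and epithelium (-0.58 ± 0.15, called by all 3 of its probe sets), Slc16a7, a monocarboxylate transporter (-0.52 ± 0.11), Slc19a2, a thiamine transporter (-0.50 ± 0.12), and Slc40a1. Of the 252, 1 was called without arrays high in T cell or squamous genes, 0 in the earlier block and 1 in the later one.

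Immune gene families held 1 call in a given direction or none, beside 1.94% of all genes called. In the H2 family 24 genes were measured and 8.33% were called, 1 higher, H2-M9 (0.62 ± 0.14, adjusted p = 0.00705), and 1 lower, H2-Ea. The class II genes H2-Aa, H2-Ab1 and H2-Eb1 differed by -0.23 ± 0.27, -0.41 ± 0.26 and -0.25 ± 0.23 and were not called. Of 48 chemokines and receptors listed by the symbols Ccl, Cxcl, Ccr, Cxcr and Cx3c, which leaves out Ppbp and Pf4, only Cxcl14 was called (2.08%). Of 15 natural killer cell receptor genes none was (limma, 0 at an unadjusted p below 0.05). C3ar1, the receptor of the complement fragment C3a, was lower in AXB/BXA strains by 0.38 ± 0.06 (adjusted p = 0.000115), with 3.62, 3.99 and 4.43 in AXB/BXA strains and 3.98, 4.34 and 5.25 in BXD strains. C3ar1 was singled out after its values were seen. Its other probe set differed by -0.13 and was not called (limma adjusted p = 0.372). Without arrays high in T cell or squamous genes the call of C3ar1 was lost (adjusted p = 0.26).

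Lists of the vessel wall held 1 call each or none, beside 1.94% of all genes called. The contractile smooth muscle list had 0 of 15 genes called (limma, 0 at an unadjusted p below 0.05) and a median of 0.02. Of 32 collagens only Col8a1, a short-chain collagen of the arterial wall, was called (3.12%; -0.34 ± 0.09, adjusted p = 0.0176). The elastic fibre and matrix list had 0 of 16 called (limma, 1 at an unadjusted p below 0.05). Of 14 endothelial markers 1 was called (7.14%), Emcn, endomucin (-0.34 ± 0.09), and 6 had an unadjusted p below 0.05 (limma). Of the 14, 11 had negative differences, and the median was -0.11. Without BXA16/PgnJ 3 were called, and the median was -0.03 without arrays high in T cell or squamous genes.

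The following 5 called genes were singled out after their values were seen, and the fixed TGF-beta pathway list had 0 of 14 called (limma, 1 at an unadjusted p below 0.05) and a median of -0.01. Fzd4, a Wnt receptor of vascular endothelium, differed by -0.51 ± 0.11 (adjusted p = 0.00238) and kept its call without arrays high in T cell or squamous genes (-0.54, adjusted p = 0.0114). Spry2, an inhibitor of receptor tyrosine kinase signalling, differed by -0.32 ± 0.06 (adjusted p = 0.000651), Bmp4 by -0.39 ± 0.10 (adjusted p = 0.0237), and Ddr2, a collagen receptor, by -0.45 ± 0.11 (adjusted p = 0.0129). Npr2, the receptor of C-type natriuretic peptide, differed by -0.32 ± 0.08 (adjusted p = 0.0182). Without arrays high in T cell or squamous genes the calls of these 4 were lost, at adjusted p of 0.303 for Spry2, 0.43 for Bmp4, 0.334 for Ddr2 and 0.114 for Npr2. A/J lay below DBA/2J on average for all 5 genes, with A/J minus DBA/2J between -1.43 for Ddr2 and -0.04 for Fzd4. Ddr2 read 5.77 and 6.18 in A/J arrays and 7.16 and 7.65 in DBA/2J arrays.

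The fixed groups in this paragraph held 1 call each or none, beside 1.94% of all genes called. Per3, a circadian clock gene, differed by -0.53 ± 0.13 (adjusted p = 0.0171) and was the only one called of 13 clock genes (7.69%). Hspa1b, an inducible heat shock protein, differed by 0.62 ± 0.17 (adjusted p = 0.0303). It was the only one called of 12 immediate early and heat shock genes (8.33%), and its 3 probe sets were all called. Car3, carbonic anhydrase 3 of fat and muscle, differed by -0.26 ± 0.07 and was the only one called of 10 adipocyte genes (10%). Its call was lost in 10 of 55 fits that each left out 1 strain. The brown adipocyte list had 0 of 6 called (limma, 0 at an unadjusted p below 0.05), although Ucp3, singled out after its values were seen, differed by -0.55 ± 0.13 (adjusted p = 0.0135) and was called by both its probe sets.

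In 3 lists every member had a positive difference and none was called. All 12 T cell and thymocyte genes did (limma, 6 at an unadjusted p below 0.05), with a median of 0.65 and differences up to 1.02. Cell cycle genes did so in 14 of 14 (4 at an unadjusted p below 0.05, median 0.29) and sterol synthesis genes in 13 of 13 (6, median 0.23). Without arrays high in T cell or squamous genes the T cell list had 6 of 12 positive and a median of 0.00, the cell cycle list 6 of 14 and -0.02, and the sterol list 12 of 13 and 0.32. Of the sterol genes Fdps, farnesyl diphosphate synthase, was nearest to a call (0.56 ± 0.17, adjusted p = 0.0553).

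**Figure D5:**
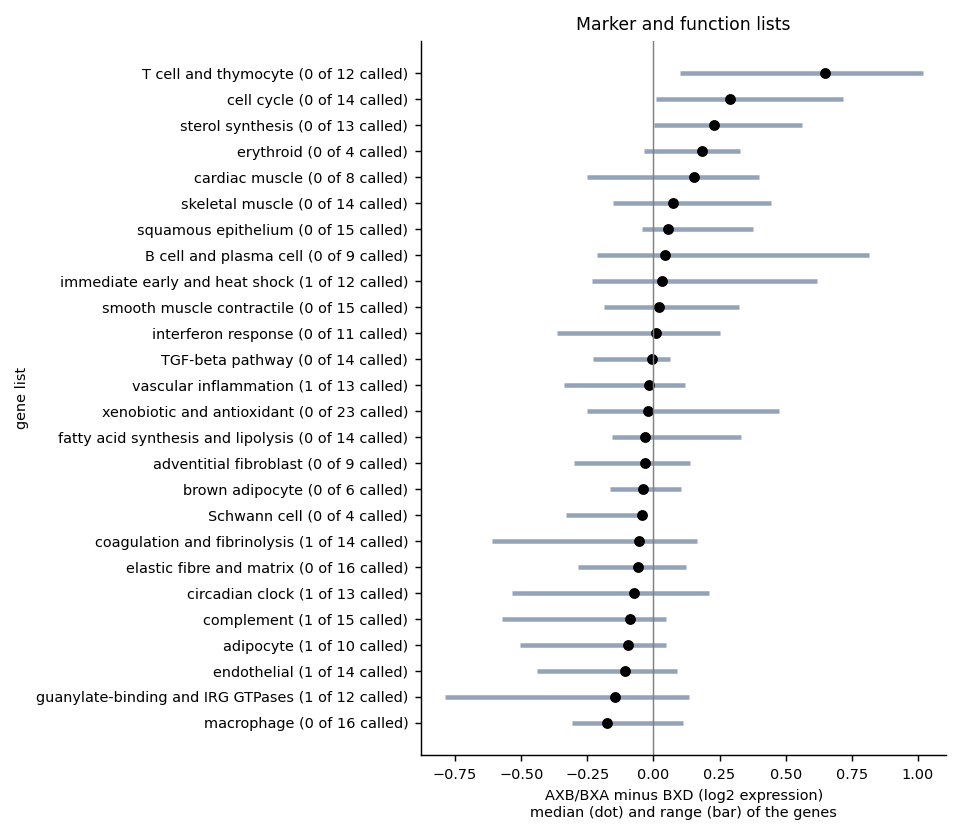
AXB/BXA minus BXD in log2 expression for the fixed marker and function lists, with the median of each list's genes (dot) and their range (bar); the number of called genes stands beside each name. The T cell, cell cycle and sterol synthesis lists lie wholly above 0 with no gene called.

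Probe sets of 1 gene did not always agree. Of 109 called genes with more than 1 probe set, 28 had another probe set called the same way and 2 had one called the opposite way. The widest disagreement was in Pdxdc1, whose strongest probe set was called at 2.12 ± 0.38, a second at -2.34 ± 0.39 (adjusted p = 0.000168) and the remaining one differed by 0.31 ± 0.09 (adjusted p = 0.0525). The parents showed the same contrast between its probe sets, with A/J minus DBA/2J at 4.34 and -3.91. Zfp24 had probe sets called at 0.97 and -0.45, while its strongest differed by -0.21 ± 0.08 (adjusted p = 0.22). Mau2, a cohesin loader, had 1 called at 0.27 and another at -0.21. A strain variant under a probe and a change in transcript level cannot be told apart on these arrays. That limit holds for every gene named here, and the direction of these 3 genes is uncertain.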

How the data were processed

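Aortic RNA was measured on Affymetrix HT_MG-430A arrays. GCOS and RMA are named in the submitters' processing notes, and the deposited values are log2 expression per probe set, in 1 table for all 188 arrays. Which software versions and build were used was not given in the sources used here. RMA adjusts background, quantile normalises arrays and summarises probes, so a shift common to most transcripts would be removed, and values near the low end compress differences. The number of arrays per strain limits precision.

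Of 22416 probe sets, 89 controls were left out. The platform annotation gave 1 symbol to 17783 probe sets, several to 284 and none to 4260, for 11725 genes. The gene table of GRCm38.p6 held 17759 of the former and changed 0 symbols. It was used for names and neighbours only. Arrays were averaged per strain, and families were compared with limma 3.58.1 in R 4.3.3 (lmFit, eBayes, two-sided, Benjamini-Hochberg over all tested probe sets). Whether a strain's arrays are separate animals is not in the labels. BXD32/TyJ was left out; its arrays lay nearest to C57BL/6J. A/J minus DBA/2J was a contrast in a fit with a term per strain, BXD32/TyJ left out (93 residual degrees of freedom). The procedure was tested on simulated data.

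A gene stands for its probe set with the highest mean. Named were the 15 largest called differences each way, 2 to 4 called members of each fixed list (uncalled ones where a count needs them), called genes with an opposite parental difference over 1 (none met this), and genes with probe sets called in opposite directions. Strains were counted by nearer parent only where the family's parents differed by at least 1. The families, the lists and most tests were chosen with earlier results of these data known, and genes and lists chosen after their values were seen are marked as such. Alternatives covered the unit of replication, array number blocks, single strains, cross direction, other tissue in the sample, normalisation, filters and the variance model. Promoters are RefSeq's, and matches were sought on both strands.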

Additional observations from a re-analysis of the deposited data

How the results depend on the processing

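In the alternatives other than leaving out single strains, all called probe sets that were tested kept their direction, while the number called moved. All alternatives reuse arrays on which the probe sets were called, which favours the same direction. With each of the 55 strains left out in turn, between 393 (without BXD42/TyJ) and 531 (without AXB1/PgnJ) probe sets were called, and none of the 102 named genes changed direction. More were called with all arrays and the strain as a random block (717). Fewer were called in the later array numbers alone (178), in the earlier ones alone (0, or 3 without BXA16/PgnJ, an alternative added after seeing the data), with AXB strains alone (295) or BXA strains alone (73) against BXD, without arrays above 1 on the T cell or squamous score (128, of which 113 were among the 476) and with 1 probe set per gene (211). Each of these uses fewer strains or tests fewer probe sets. The remaining settings gave between 376 and 465 calls. Of the 30 genes with the largest differences, 16 were called in the later block alone and 8 without the arrays above 1 on those scores. With the T cell, squamous and skeletal muscle scores as covariates 29 were, Pnpla3 being the exception (adjusted p = 0.0728). The share of matching parental signs was 77.6% among probe sets above the median level, and 8 probe sets were called between A/J and DBA/2J on those 4 arrays alone. The causes of these shifts were not tested further. No paired analysis was possible because replicate numbers do not pair strains of the families. Parental levels rest on 2 or 3 arrays each, and differences are compressed in probe sets near the low end of the scale, such as that of Heph.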

Other observations

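Further called genes, other than the metalloprotease genes named last, were singled out after their values were seen. They have no list behind them and are given as single values. Prrx1, a transcription factor of mesenchymal cells, differed by -0.53 ± 0.14 (SE, adjusted p = 0.0347) and Aspn, a small proteoglycan of matrix, by -0.34 ± 0.09 (adjusted p = 0.0216). Egln1, the oxygen-sensing prolyl hydroxylase that marks HIF proteins for degradation, had a lowest, median and highest of 9.15, 9.80 and 10.4 in AXB/BXA strains and 9.53, 10.1 and 10.6 in BXD strains, and differed by -0.31 ± 0.08 (adjusted p = 0.0174). Csf2rb, the shared receptor chain for GM-CSF, interleukin 3 and interleukin 5, differed by -0.27 ± 0.06 (adjusted p = 0.00901), and Il1rn, the interleukin 1 receptor antagonist, by -0.27 ± 0.07 (adjusted p = 0.0218). The call of Prrx1 was lost in 11 of 55 fits that each left out 1 strain, and those of the other 4 in none. Without arrays high in T cell or squamous genes all these calls were lost, at adjusted p (limma) between 0.16 for Il1rn and 0.418 for Csf2rb. The other probe sets of Prrx1, Aspn and Il1rn were not called, while that of Egln1 was.

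The RNA-binding protein gene Elavl1 differed by 0.25 ± 0.06 (adjusted p = 0.0146), the splicing factor gene Sf3a1 by 0.24 ± 0.06 (adjusted p = 0.0234) and Polr1d, a subunit shared by RNA polymerases I and III, by 0.23 ± 0.06 (adjusted p = 0.0298). The splicing cofactor gene Srrm1 went the other way, with 2 probe sets called at -0.64 and -0.30. Gabarapl2, a ubiquitin-like protein of autophagosomes, differed by 0.19 ± 0.05 (adjusted p = 0.0176). It kept its call without arrays high in T cell or squamous genes (limma adjusted p = 0.0408). Those of Elavl1, Sf3a1 and Polr1d were lost there (adjusted p = 0.216, 0.474 and 0.359). A/J lay below DBA/2J on average for Elavl1, Sf3a1 and Gabarapl2. On the fixed list of metalloproteases and ADAMs 3 of 51 genes were called (5.88%, beside 1.94% of all genes), 1 higher and 2 lower. Mmp9 differed by 0.24 ± 0.07 (limma adjusted p = 0.0364), Adamts10 by -0.31 ± 0.07 (adjusted p = 0.00602) and Adam1a by -0.17 ± 0.04 (adjusted p = 0.0129). The call of Mmp9 was lost in 10 of 55 fits that each left out 1 strain. None of the 51 was called without arrays high in T cell or squamous genes.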
